A study of Mus musculus with 4 samples.

Results

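Small leucine-rich proteoglycans (SLRPs) are secreted proteins of the extracellular matrix, and 9 of their genes (Dcn, Lum, Bgn, Fmod, Ogn, Prelp, Aspn, Podn and Omd) were followed among the 18619 genes of the expression matrix. They were taken as members of the family by name and were described across stromal cell types and across the level of Amotl2, a target gene of the coactivators YAP and TAZ. Droplet-based 3′ sequencing had been used to count messenger RNA in single stromal cells sorted from mouse small intestine. Of the 4 samples of the series, which fall into 3 groups, 1 was examined, the library labelled LATS1/2 KO 1w. The WT libraries and the 2-week library were not analysed here. The cells came from adult C57BL/6J mice with loxP-flanked Lats1 and Lats2 alleles, a tamoxifen-inducible CreERT2 driven by Pdgfrb, and a tdTomato reporter by which they were sorted, 1 week after deletion was set off. Deletion was thus limited to cells in which Pdgfrb was active, and the labels did not state how many mice the library pooled.

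The SLRP core protein is a curved stack of leucine-rich repeats that binds collagen fibrils and helps to set their thickness and spacing, and most family members carry sulfated sugar chains. Several of them also hold growth factors of the TGF-beta family in the matrix. Decorin (Dcn), biglycan (Bgn) and asporin (Aspn) form one branch of the family, lumican (Lum), fibromodulin (Fmod), PRELP (Prelp) and osteomodulin (Omd) another, while osteoglycin (Ogn) and podocan (Podn) each belong to a branch of their own. In the gut wall they are products of fibroblasts, mural cells and smooth muscle. LATS1 and LATS2 are kinases that restrain YAP and TAZ, which act on DNA through TEAD factors.

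In all 4108 cells together, 46054627 unique molecular identifiers (UMIs, each 1 counted RNA molecule) had been read, and the median cell had 10726 of them (lowest 1965, highest 35727). Each cell had a Pdgfrb UMI, and 0 barcodes occurred more than once. The columns marked F and M, of 2125 and 1983 cells, were split by whether Xist was counted. In 2009 cells Xist was counted without a Y-linked UMI and in 1545 the reverse held, so the library had cells of both sexes. The 9 genes took 779701 UMIs, 1.69% of the library. Levels are given as CPM, that is, UMIs of a gene among 1000000 UMIs pooled over a cell set, and carry exact 95% Poisson intervals. For ratios of levels the intervals are exact and conditional. With 1 library there was no replicate and no test, and all intervals cover counting error only. As deleted exons are not separated from the rest of a gene in 3′ counts, the 656 Lats1 UMIs (14.2 CPM) and 2466 Lats2 UMIs (53.5 CPM) check nothing about the deletion. RNA carried over from other cells was bounded by the 161 Y-linked UMIs in the 2004 cells with at least 5 Xist UMIs, whose level was 8.64% of the library mean. This share of each gene's library mean is called the free RNA bound below. It was used as a point value without its own counting error, which matters for levels close to it.

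Clustering with the 9 genes left out gave 9 clusters. FB4-like cells (692) carried all 4 markers of that fibroblast class, Ackr4, Grem1, Cilp and Cd81. FB5-like cells (205) carried all 6 of their markers, among them Foxl1 and Bmp5. Of its 10 leading genes only Sox6 was on that list, while Kcnj8 and Abcc9, channel genes known from mural cells though not on the mural list used, were more in number, so the name rests on the 6 markers. When cells were assigned by marker UMIs without clustering, only 15 were taken as FB5-like. SMC-like cells (77) carried all 7 smooth muscle markers, Actg2 and Cnn1 among them, and vFB3-like cells (45) all 5 of theirs, such as Tacr1 and P2rx1. Clusters 1, 2, 3 and 5 held 895, 741, 709 and 675 cells, had Adamdec1, a marker of lamina propria fibroblasts, at 4071 to 5090 CPM, and were left unnamed. These 4 are called the main clusters and together held 3020 cells. They were not free of other markers. Cluster 2 met 2 vFB3 and 2 FB5 markers, short of the 3 needed for a name, and had the vFB3 marker Fhl2 among its leading genes. Cluster 3 met 2 FB4 markers. Cluster 8 (69 cells) carried all 8 mural markers but was left unnamed, since its 10 leading genes held none of them and did hold Ano1, a marker of the interstitial cells of Cajal, at 68.6 CPM with 3 UMIs of Kit. Amotl2 divided the main clusters: it stood at 193 (cluster 2) and 282 CPM (cluster 5), but at 51.4 (cluster 1) and 73.3 CPM (cluster 3). Fos, an immediate early gene that also reacts to tissue dissociation, divided them another way, with 2584 (cluster 3) and 1854 CPM (cluster 5) over 238 (cluster 1) and 110 CPM (cluster 2).

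Decorin, the collagen-binding proteoglycan with 1 sugar chain, had a UMI in 79.2% of the cells of cluster 8 thinned to 5000 UMIs and in nearly all other cells. Its level was 10606 CPM in cluster 1, 7820 in cluster 2, 11608 in cluster 3, and 8395 in cluster 5, with 22195 in FB4-like cells, 3896 in FB5-like cells, 4423 in SMC-like cells, 4415 in cluster 8 and 4876 in vFB3-like cells. FB4-like cells stood above every other cluster, and only the intervals of SMC-like cells and cluster 8 overlapped among neighbours in the order. In cells thinned to 5000 UMIs, 10% of FB4-like cells had 72 Dcn UMIs or fewer and 10% had 154 or more, around a median of 112. The medians of the main clusters were 36 to 55, so the FB4-like cells were shifted as a body. Intervals of all pooled levels are drawn in the plot of levels by cluster.

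Biglycan, the relative of decorin encoded on the X chromosome, was the most even of the 9 genes. It had 2154 CPM in cluster 1, 1931 in cluster 2, 1936 in cluster 3, and 1910 in cluster 5, with 1498 in FB4-like cells, 1262 in FB5-like cells, 997 in SMC-like cells, 823 in cluster 8 and 2587 in vFB3-like cells. The highest level was 3.14 times the lowest, and vFB3-like cells led, which they did for no other gene of the set. Asporin, whose N terminus is rich in aspartate, spanned 60.7-fold. It had 497 CPM in cluster 1, 540 in cluster 2, 426 in cluster 3, and 635 in cluster 5, with 418 in FB4-like cells, 68.4 in FB5-like cells, 835 in SMC-like cells, 577 in cluster 8 and 13.8 in vFB3-like cells. The vFB3-like level rested on 8 UMIs and lay below the free RNA bound of 41.4 CPM, whereas SMC-like cells stood above all other clusters.

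Lumican, a keratan sulfate proteoglycan of collagen fibrils, had its highest level in FB4-like cells at 3196 CPM. The main clusters had 1431 (cluster 1), 1617 (cluster 2), 1732 (cluster 3) and 1774 CPM (cluster 5), and FB5-like cells had 1174 CPM. SMC-like cells had 501 CPM and cluster 8 had 572 CPM, with overlapping intervals. In vFB3-like cells Lum came to 114 CPM (66 UMIs; interval 87.8 to 144), below its free RNA bound of 160 CPM, and 5 of the 45 cells held 84.8% of these UMIs. The ratio of Dcn to Lum UMIs was 43.0 (33.7 to 55.7) in vFB3-like cells, against 3.32 to 8.83 in the other 8 clusters. As a set, vFB3-like cells thus held decorin message above its bound and lumican message below.

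PRELP, a basic protein that binds collagen and heparan sulfate, had 209 CPM in cluster 1, 501 in cluster 2, 263 in cluster 3, and 670 in cluster 5, with 183 in FB4-like cells, 435 in FB5-like cells, 135 in SMC-like cells, 408 in cluster 8 and 217 in vFB3-like cells. Podocan, an SLRP known from kidney and from vessel walls, had 127 CPM in cluster 1, 166 in cluster 2, 182 in cluster 3, and 322 in cluster 5, with 165 in FB4-like cells, 82.4 in FB5-like cells, 269 in SMC-like cells, 121 in cluster 8 and 18.9 in vFB3-like cells. Both were highest in cluster 5. Of the 8 neighbouring pairs in the order of Podn 4 had overlapping intervals, as had 3 in that of Prelp.

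Osteoglycin, also called mimecan, split the main clusters both by level and by the share of cells that held it. It had 114 CPM in cluster 1, 1023 in cluster 2, 137 in cluster 3, and 964 in cluster 5, with 1244 in FB4-like cells, 2182 in FB5-like cells, 476 in SMC-like cells, 711 in cluster 8 and 585 in vFB3-like cells. At 5000 UMIs per cell an Ogn UMI was found in 21.9% of cluster 1 and 25.9% of cluster 3, but in 93.0% of cluster 2 and 92.0% of cluster 5. In FB5-like cells the share was 99.5%, and without thinning the shares of clusters 1, 2, 3 and 5 were 29.9%, 96.0%, 33.9% and 96.4%. The low levels of clusters 1 and 3 stood above the free RNA bound of 67.3 CPM, and the 10% of cells with most Ogn UMIs held 77.1% of them in cluster 1, against 24.3% in cluster 2.

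Fibromodulin and osteomodulin, which bind collagen and are rich in tyrosine sulfate, were sparse. Fmod had 4.68 CPM in cluster 1, 50.3 in cluster 2, 6.03 in cluster 3, and 72.2 in cluster 5, with 39.0 in FB4-like cells, 4.0 in FB5-like cells, 2.62 in SMC-like cells, 61.6 in cluster 8 and 3.44 in vFB3-like cells. The first 4 in its order were clusters 5, 8 and 2 and FB4-like cells, and the intervals of the other 5 clusters overlapped from one to the next. Omd had 25.5 CPM in FB4-like cells, 14.1 in cluster 8, 11.4 in cluster 5, 11.2 in FB5-like cells, 11.2 in cluster 2 and 3.44 in vFB3-like cells. It was lowest among the main clusters in cluster 3, at 2.49, and cluster 1, at 2.05 CPM. In SMC-like cells 0 Omd UMIs were counted, which allows up to 3.93 CPM taken as 3 counts and up to 4.84 CPM by the Poisson interval. Fmod in SMC-like cells, with 2 UMIs, was below its free RNA bound of 2.77 CPM, and the intervals of Omd overlapped between all neighbours in its order.

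**Figure D1:**
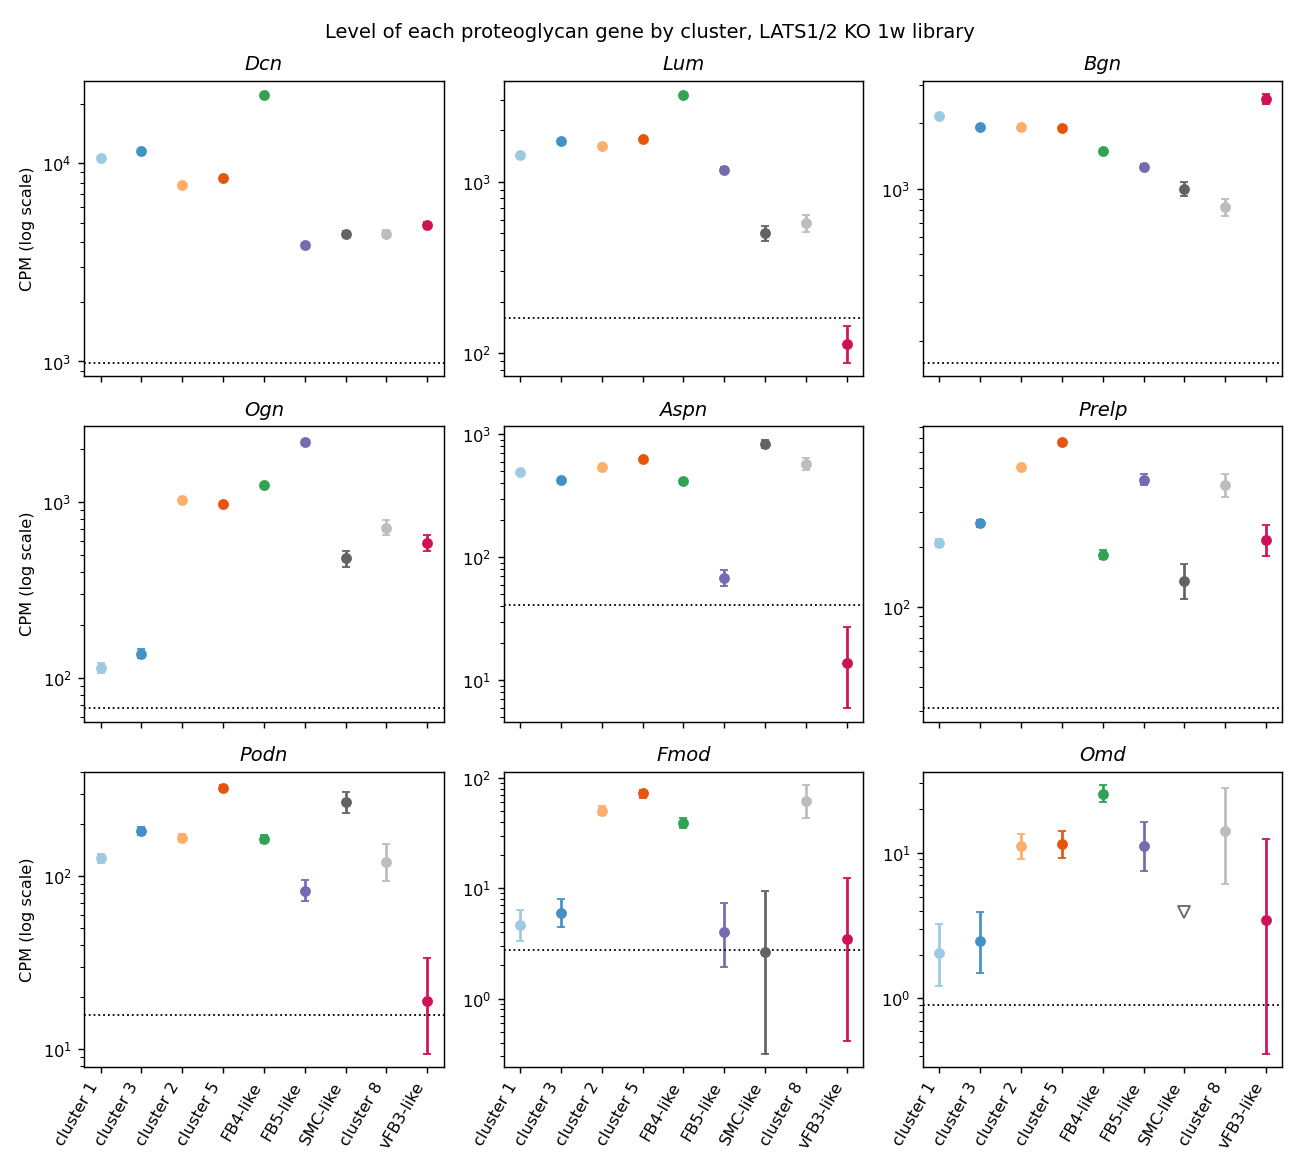
Level of each of the 9 genes in the 9 clusters, in CPM on a log axis. Points are the UMIs of a cluster pooled and bars exact 95% Poisson intervals, the dotted line is the free RNA bound, and the open triangle marks the limit for 0 UMIs of Omd in SMC-like cells (3.93 CPM). Ogn and Fmod stand low in clusters 1 and 3, and Lum, Aspn and Podn are lowest in vFB3-like cells.

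By counts of UMIs, which are not scaled by gene length in 3′ sequencing, the mixture of the 9 messages differed between cell types. Dcn made up 76.6% of their UMIs in FB4-like cells and 42.7% in FB5-like cells. Ogn was 23.9% of the mixture in FB5-like cells and 0.752% in cluster 1. Bgn was 30.7% in vFB3-like cells and 5.17% in FB4-like cells, and Aspn was 10.9% in SMC-like cells and 0.163% in vFB3-like cells. The sum of the 9 genes was 28964 CPM in FB4-like cells, 13660 to 16293 CPM in the main clusters and 7639 to 9116 CPM in the other 4 clusters.

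**Figure D2:**
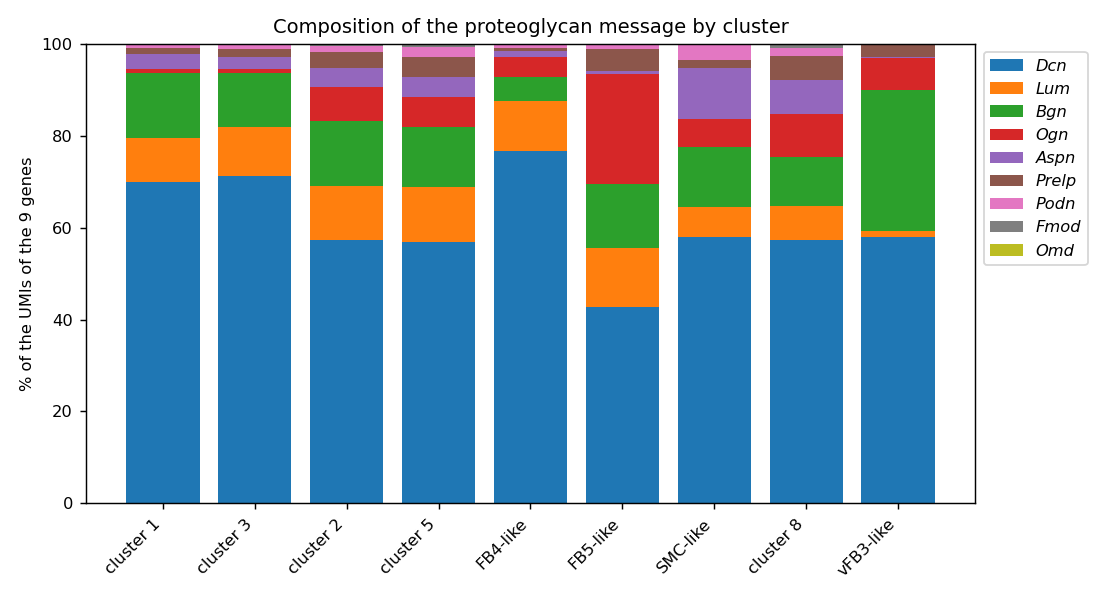
Share of each gene in the UMIs of the 9 genes, in percent, by cluster. Each bar adds to all UMIs of the 9 genes in that cluster. The Ogn share is widest in FB5-like cells (23.9%) and the Bgn share in vFB3-like cells (30.7%).

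Each cell type was then set against the pooled main clusters, and a gene was counted when its ratio was at least 2 or at most 0.5. In FB4-like cells 4 of the 9 genes were past this mark, where 8.07% of the 10382 genes with at least 200 UMIs were. Omd was 3.74 times as high (3.09 to 4.53), Dcn 2.32 times (2.31 to 2.33) and Ogn 2.21 times (2.16 to 2.26), while Prelp had a ratio of 0.449 (0.426 to 0.473). Lum fell just short of the mark at 1.96 (1.93 to 1.99). The median ratio of the 9 genes was 1.18, that of all genes 0.923. In FB5-like cells 5 of 9 were past the mark, against 14.3% of all genes. Ogn stood alone above it at 3.87 (3.76 to 3.99), and Fmod (0.121), Aspn (0.131), Dcn (0.407) and Podn (0.422) were under it, so that the median of the 9 was 0.635 and that of all genes 1.01. With the free RNA bound subtracted Fmod had 0.0405 and Aspn 0.0560. In the 15 cells taken as FB5-like by marker UMIs the count was 4. Podn (0.570) was no longer past the mark there, Prelp had 1.39 and Ogn 4.06. The share of cells with at most 5% mitochondrial UMIs, a sign of RNA quality, moved with the groups: 38 of 205 FB5-like, 8 of 77 SMC-like, 24 of 69 cluster 8 and 17 of 45 vFB3-like cells were within it, against 550 of 692 FB4-like and 1640 of 3020 main-cluster cells. Within that limit 4 of 9 were past the mark in FB5-like cells, Podn being at 0.508, and 4 in FB4-like cells. Its part in the ratios was not tested.

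In SMC-like cells 5 of 9 were past the mark, against 15.9% of all genes, and all 5 were lower. They were Lum at 0.307 (0.277 to 0.340), Prelp at 0.331 (0.270 to 0.402), Dcn at 0.462 (0.447 to 0.478), Fmod at 0.0792 on 2 UMIs (0.00958 to 0.287), and Omd at 0 on 0 UMIs (0 to 0.716). The interval of Omd reaches above 0.5, so its count of 0 UMIs does not place it securely past the mark. In these 77 cells Aspn had a ratio of 1.59 (1.47 to 1.72) and Podn of 1.37 (1.19 to 1.58). SMC-like cells had Adamdec1, the fibroblast marker, at 4213 CPM, within the range of the main clusters, and 8 of the 77 cells held 39.3% of the Dcn and 60.2% of the Prelp UMIs. The part of these in the ratios was not tested. When cells were assigned by marker UMIs without clustering, 300 cells were taken as SMC-like, Dcn stayed under the mark (0.468) and Ogn passed it (2.59). Aspn (0.640) and Podn (0.695) were then lower than in the main clusters, and Lum (0.591), Prelp (0.827) and Fmod (0.511) were no longer past the mark. In vFB3-like cells 4 of 9 were past the mark, against 20.5% of all genes, and all 4 were lower. Aspn had a ratio of 0.0262 (0.0113 to 0.0517), Lum 0.0696 (0.0538 to 0.0886), Podn 0.0967 (0.0483 to 0.173) and Fmod 0.104 on 2 UMIs (0.0126 to 0.376). Aspn and Lum lay below the free RNA bound and Podn (18.9 against 15.7 CPM) and Fmod (3.44 against 2.77 CPM) little above it, so these ratios cannot be read as exact folds. With the bound subtracted and 3 UMIs as the least level, Aspn had 0.0107, Lum 0.00351, Podn 0.0287 and Fmod 0.170, all 4 set by that least level, and the count was 6. In the same cells Ogn had a ratio of 1.04 and Bgn of 1.30. The count was 7 in those of the cells with no more than 5% mitochondrial UMIs and 2 at resolution 1.0, where 560 cells took the name. There Lum (0.554) and Aspn (0.746) were no longer past the mark, whereas Podn (0.353) and Fmod (0.376) were. The 45 cells had a median of 12888 UMIs, against 9439 to 11874 in the main clusters.

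Cluster 8 held cells unlike in depth and in markers. As a whole, 4 of 9 genes were past the mark, against 21% of all genes, with Lum at 0.351, Bgn at 0.415, Dcn at 0.461 and Omd at 2.07 on 8 UMIs (0.882 to 4.14). When 81 cells were assigned by mural marker UMIs in place of clustering, 0 of 9 were past the mark, with Dcn at 0.907, Lum at 0.955 and Bgn at 0.589. A split by UMIs per cell, chosen after the values had been seen, divided it into 56 cells with at most 10000 UMIs (median 6072) and 13 cells over 10000 UMIs (median 16959). The 13 cells held 88.6% of the Dcn UMIs and 95.4% of the Lum UMIs of the cluster, and 42.1% of all its UMIs. They also held all 51 Ackr4 UMIs and 93.4% of the Adamdec1 UMIs, both fibroblast markers. Of the 8 mural markers, 7 were higher in the 56 cells with intervals apart, among them Rgs5, a pericyte marker, at 4183 CPM against 547 CPM in the 13. Cspg4, the pericyte marker NG2, did not follow, at 48.6 CPM (27.8 to 79.0) in the 56 cells and 71.0 CPM (41.4 to 114) in the 13.

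In the 56 smaller cells Dcn was 869 CPM (772 to 976) and Lum 45.6 CPM (25.5 to 75.2), both below their free RNA bounds of 985 and 160 CPM. In 19 of the 56 cells not 1 Dcn UMI was counted. Their ratios to the main clusters were 0.0909 for Dcn, 0.0280 for Lum and 0.254 for Bgn. Those of Dcn and Lum rest on levels below the bound and cannot be read as exact folds. Aspn at 620 CPM (538 to 711), Prelp at 416 CPM (350 to 492), Ogn at 480 CPM (408 to 561), Podn at 112 CPM (79.2 to 155) and Fmod at 85.1 CPM (56.6 to 123) stayed far above their bounds of 41.4, 31.1, 67.3, 15.7 and 2.77 CPM. The small Rgs5-rich cells of cluster 8 thus lacked Dcn and Lum above the bound but carried asporin, PRELP, osteoglycin and fibromodulin message. Whether the 13 large cells are droplets with more than 1 cell was not tested.

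**Figure D3:**
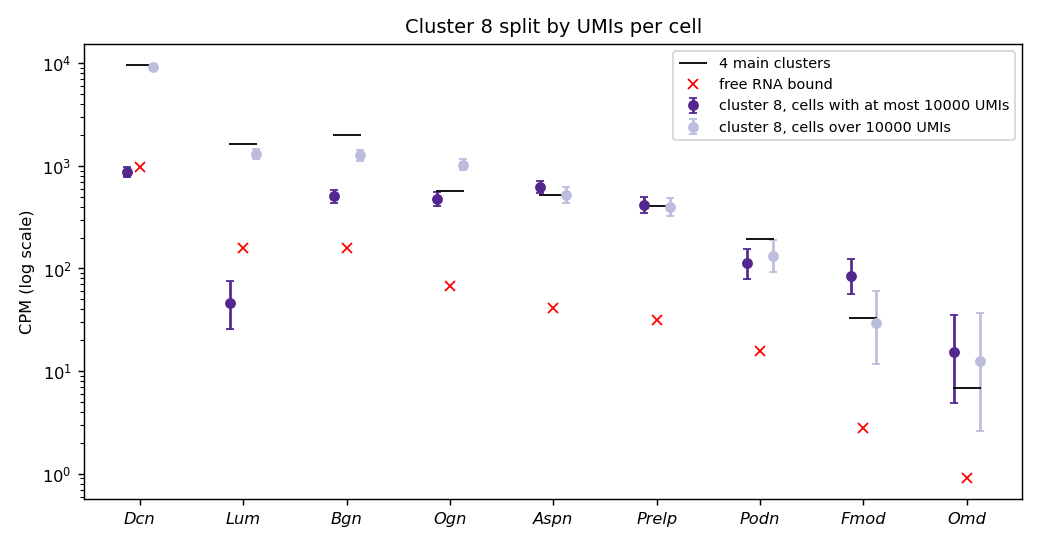
Level of the 9 genes in cluster 8, in CPM on a log axis, for its 56 cells with at most 10000 UMIs and its 13 cells over 10000 UMIs. Bars are exact 95% Poisson intervals, dashes the level in the 4 main clusters and crosses the free RNA bound. Dcn (869 against 9287 CPM) and Lum (45.6 against 1295 CPM) differ most between the sets of cells.

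Within the main clusters, the 2 clusters with more Amotl2 were set against the 2 with less, at few and at many immediate early UMIs. Cluster 2 over cluster 1 had 4 of 9 genes at least 2 times as high, where 2.05% of 10375 genes were, and none of the 9 at 0.5 or less. Fmod had a ratio of 10.8 (7.81 to 15.2), Ogn of 8.98 (8.41 to 9.60), Omd of 5.43 (3.27 to 9.54) and Prelp of 2.40 (2.28 to 2.54). Cluster 5 over cluster 3 had the same 4 genes at least 2 times as high, against 2.54% of 10374 genes. There the ratios were 12.0 for Fmod (8.86 to 16.6), 7.01 for Ogn (6.57 to 7.49), 4.59 for Omd (2.77 to 7.98) and 2.55 for Prelp (2.42 to 2.69). The 2 pairs share no cells, and in both the ratios of Fmod and Ogn were higher than those of 99.9% of genes.

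Dcn ran against these 4, at 0.737 (0.730 to 0.745) in cluster 2 over cluster 1 and 0.723 (0.716 to 0.731) in cluster 5 over cluster 3. Lum (1.13 and 1.02) and Bgn (0.897 and 0.987) were near 1. Podn had ratios of 1.31 and 1.77 and Aspn of 1.09 and 1.49. Where the clusters were closer in Amotl2, cluster 3 over cluster 1 and cluster 5 over cluster 2 had 0 of 9 genes past the mark, against 3.05% and 3.8% of all genes. The widest differences there were those of Podn, at 1.43 (1.32 to 1.55) and 1.94 (1.82 to 2.07), so fewer of the 9 genes were past the mark across the immediate early split than across the Amotl2 split. Fmod was itself among the 10 leading genes of cluster 5, although it took no part in the clustering. Between cells with Xist and cells with Y-linked UMIs of the main clusters, Fmod was past 1.5-fold at 1.99 (1.72 to 2.30) and the other 8 were not, against 3.06% of all genes. Sex and animal cannot be told apart in this comparison.

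**Figure D4:**
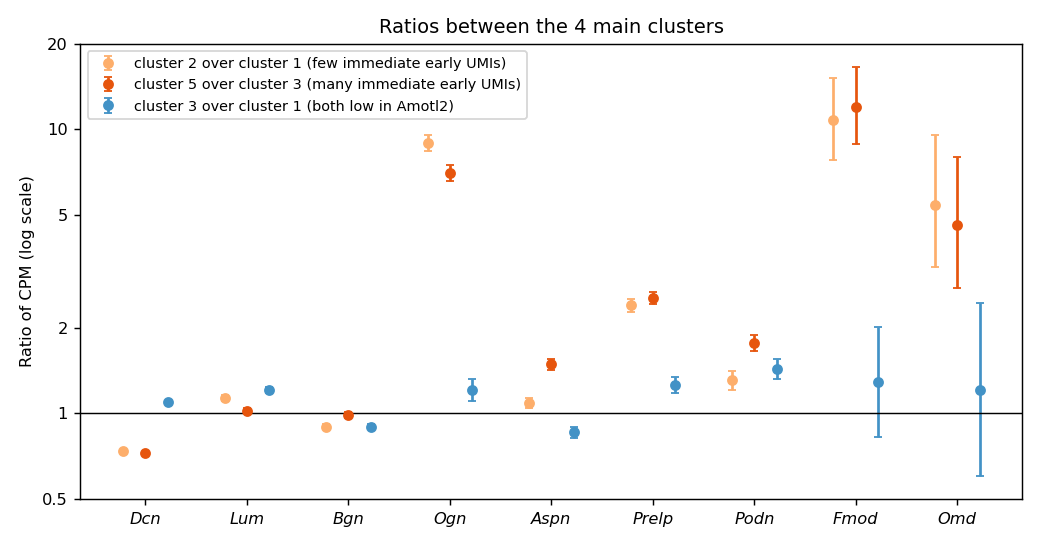
Ratios of CPM between main clusters on a log axis, with exact 95% conditional intervals. Fmod, Ogn, Omd and Prelp lie above 2 in cluster 2 over cluster 1 and in cluster 5 over cluster 3, and all 9 genes lie between 0.858 and 1.43 in cluster 3 over cluster 1.

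Fmod, Ogn, Omd and Prelp thus differed together between the main clusters, and the 250 bases before their transcription starts are shown for that reason, from RefSeq on GRCm38.p6, 5′ to 3′ on the strand of the gene. Capitals mark the TEAD motif GGAATG (or CATTCC on the other strand), searched on both strands from 250 bases before to 50 after the start. The study took the shorter GGAAT as its TEAD consensus. That form was not searched, and the Ogn and Omd sequences hold it (or ATTCC, on the other strand) in unmarked letters.

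Ogn (chr13:49607765-49608014, plus strand): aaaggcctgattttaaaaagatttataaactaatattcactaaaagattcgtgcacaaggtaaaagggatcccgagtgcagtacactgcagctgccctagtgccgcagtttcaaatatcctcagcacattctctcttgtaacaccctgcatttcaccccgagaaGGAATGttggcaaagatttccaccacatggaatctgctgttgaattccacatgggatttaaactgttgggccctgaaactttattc

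Fmod (chr1:134037004-134037253, plus strand): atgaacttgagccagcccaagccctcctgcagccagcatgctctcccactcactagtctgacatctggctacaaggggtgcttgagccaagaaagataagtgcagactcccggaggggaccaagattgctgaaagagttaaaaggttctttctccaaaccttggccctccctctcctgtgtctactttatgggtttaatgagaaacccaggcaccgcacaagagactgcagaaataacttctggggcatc

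Prelp (chr1:133921402-133921651, minus strand): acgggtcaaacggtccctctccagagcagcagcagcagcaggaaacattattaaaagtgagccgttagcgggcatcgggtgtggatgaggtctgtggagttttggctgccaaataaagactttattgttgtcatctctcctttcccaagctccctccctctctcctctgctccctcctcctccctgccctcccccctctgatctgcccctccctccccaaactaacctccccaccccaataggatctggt

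Omd (chr13:49582212-49582461, plus strand): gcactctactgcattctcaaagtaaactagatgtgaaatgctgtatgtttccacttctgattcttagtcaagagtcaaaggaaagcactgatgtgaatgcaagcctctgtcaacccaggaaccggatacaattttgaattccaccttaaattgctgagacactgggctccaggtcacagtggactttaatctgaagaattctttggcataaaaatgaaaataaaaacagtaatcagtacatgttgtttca

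Of the 9 genes, 7 (8 promoters) were matched in this RefSeq table and Dcn and Lum were not. GGAATG stood in the Ogn promoter alone, 81 to 86 bases before the start, and in 14.7% of all 32851 promoters. The AP-1 motif TGANTCA stood in 0 of the 8 and in 7.81% of all promoters. On mm10 (GENCODE M21), Ogn (chr13:49608046-49624501), Omd (chr13:49582462-49592822) and Aspn (chr13:49544443-49567565) are neighbours with gaps of 15.2 and 14.9 kb. Fmod (chr1:134037254-134048277) and Prelp (chr1:133910304-133921414) lie 116 kb apart, and Dcn (chr10:97479609-97518143) and Lum (chr10:97565128-97572703) 47.0 kb apart. Bgn lies at chrX:73483602-73495933 and Podn at chr4:108014791-108096445. Aspn, next to Omd, did not share the ratios of Ogn and Omd, while Fmod and Prelp, neighbours on chromosome 1, were both past the mark.

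Amotl2 was next read in each cell. After thinning to 5000 UMIs, the main clusters had 1728 cells with 0 Amotl2 UMIs, 742 with 1 and 495 with 2 or more. Ogn was 310 CPM, 653 CPM and 928 CPM in these bins, Fmod 15.6, 35.3 and 65.5 CPM, and Prelp 299, 465 and 594 CPM. Podn was 150, 222 and 282 CPM, Omd 4.17, 7.01 and 9.29 CPM, and Aspn 491, 531 and 608 CPM. Dcn went the other way, at 10121, 9260 and 8560 CPM. In the pooled main clusters the point levels of all 6 genes were thus higher, bin by bin, where Amotl2 was higher. The intervals of neighbouring bins were apart for each of them but Omd, whose intervals overlapped at both steps.

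Between 2 or more and 0 Amotl2 UMIs, 5 of 9 genes had a ratio of at least 1.5, where 10.5% of 10270 genes were past 1.5-fold in either direction and 5.27% were higher. The ratios were 4.19 for Fmod (3.31 to 5.30), 2.99 for Ogn (2.83 to 3.16), 2.23 for Omd (1.26 to 3.87), 1.99 for Prelp (1.86 to 2.12) and 1.88 for Podn (1.71 to 2.06). Aspn had 1.24 (1.17 to 1.32), Lum 1.09, Bgn 0.958 and Dcn 0.846 (0.833 to 0.859). Without thinning Fmod had 7.77 and Ogn 4.95, and the count was again 5. Xist and Y-linked cells alone gave ratios of 3.11 and 6.46 for Fmod and 2.54 and 3.36 for Ogn. Omd, the sparsest gene, with 23 and 36 UMIs in the upper and lower bins, had 0.779 in Y-linked cells alone, and counts this small do not show a change of direction. Inside single clusters the ratios varied more. Within clusters 1, 2, 3 and 5 the ratio of Ogn was 3.70 (2.62 to 5.11), 1.31 (1.21 to 1.42), 2.65 (1.87 to 3.69) and 1.11 (1.02 to 1.22). In clusters 1 and 3 the cells with 0 Amotl2 UMIs had Ogn at 72.0 CPM (63.5 to 81.4) and 77.2 CPM (66.8 to 88.7), intervals that include the free RNA bound of 67.3 CPM, so that neither ratio can be read as an exact fold. For Fmod it was 1.99 (1.37 to 2.91) in cluster 2 and 1.22 (0.872 to 1.71) in cluster 5, both far under the pooled 4.19, and clusters 1 and 3 had only 3 and 1 Fmod UMIs in the upper bin. For Dcn it was 1.01, 1.04 (1.01 to 1.07), 0.925 and 0.959 in the 4 clusters, so that the pooled decline was not found in clusters 1 and 2. For Aspn it was 1.21 (0.978 to 1.49), 1.10 (0.988 to 1.23), 1.11 (0.892 to 1.37) and 0.998 (0.895 to 1.11), so that the pooled rise was not resolved inside any of the 4 clusters. That of Prelp was 1.18 (0.825 to 1.63), 1.19 (1.06 to 1.33), 1.19 (0.895 to 1.56) and 1.22 (1.10 to 1.36). All 4 were under the pooled 1.99, and the intervals of clusters 1 and 3 included 1. For Podn it was 1.58 (1.04 to 2.30), 1.52 (1.25 to 1.84), 1.09 (0.766 to 1.52) and 1.36 (1.16 to 1.60), so that the pooled rise was not resolved in cluster 3. Among members with at least 50 UMIs, 2 of 7, 2 of 8, 1 of 7 and 0 of 8 were past 1.5-fold, against 31.9%, 6.64%, 23.6% and 9.13% of all genes. The Ogn ratio was thus larger in the clusters where Ogn was rare, whose upper bins held 33 and 43 cells. With bins by Ctgf, another target of YAP and TAZ, only Ogn (1.53) of the 9 had a ratio of at least 1.5, where 17.2% of all genes were past 1.5-fold. Fmod stood at 1.01 and Podn at 0.848.

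FB4-like cells, none of which are in the main clusters, had 403, 148 and 130 cells in the bins. Ogn was 837, 1269 and 2286 CPM there, Fmod 15.4, 36.5 and 90.8 CPM, and Prelp 136, 170 and 295 CPM. Omd was 17.9, 23.0 and 49.2 CPM, Podn 141, 174 and 240 CPM, and Aspn 340, 388 and 552 CPM. Dcn was 24032, 21762 and 18611 CPM, and Lum 3415, 3132 and 2948 CPM. The point levels of the same 6 genes as in the main clusters were thus higher, bin by bin, where Amotl2 was higher, and that of Dcn was lower. Between 0 and 1 Amotl2 UMIs, however, the intervals of Prelp, Podn, Aspn and Omd overlapped. Those of Podn and Omd also overlapped between the upper bins. Lum went up by bin in the pooled main clusters (1584, 1645 and 1733 CPM), with overlapping intervals between neighbouring bins, and down in FB4-like cells. Inside clusters 1, 2, 3 and 5 its ratio of 2 or more over 0 was 0.948, 1.13 (1.06 to 1.21), 0.981 and 1.01. The pooled rise of Lum was thus resolved in cluster 2 alone.

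The ratio of 2 or more over 0 was at least 1.5 for 6 of 9 genes in FB4-like cells, where 16.3% of 6038 genes were past 1.5-fold in either direction and 9.19% were higher. It was 5.90 for Fmod (3.76 to 9.43), 2.76 for Omd (1.66 to 4.56), 2.73 for Ogn (2.55 to 2.93), 2.17 for Prelp (1.80 to 2.62), 1.70 for Podn (1.39 to 2.08) and 1.62 for Aspn (1.43 to 1.85). Dcn had 0.774 (0.759 to 0.790), Lum 0.863 (0.820 to 0.908) and Bgn 0.969 (0.898 to 1.04). With bins by Vegfc, 3 of 9 had a ratio past 1.5-fold, against 26% of all genes, and Podn stood at 0.988. In the 200 FB5-like cells that reached 5000 UMIs, Ogn was 1854, 2767 and 2939 CPM and Prelp 323, 510 and 715 CPM in the 3 bins. Their ratios were 1.59 (1.42 to 1.76) and 2.21 (1.75 to 2.79), and these were the 2 genes past 1.5-fold among the 6 members with at least 50 UMIs, against 18.5% of 2563 genes. Dcn had 1.02 (0.934 to 1.12) and Lum 1.43 (1.23 to 1.65) in FB5-like cells.

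**Figure D5:**
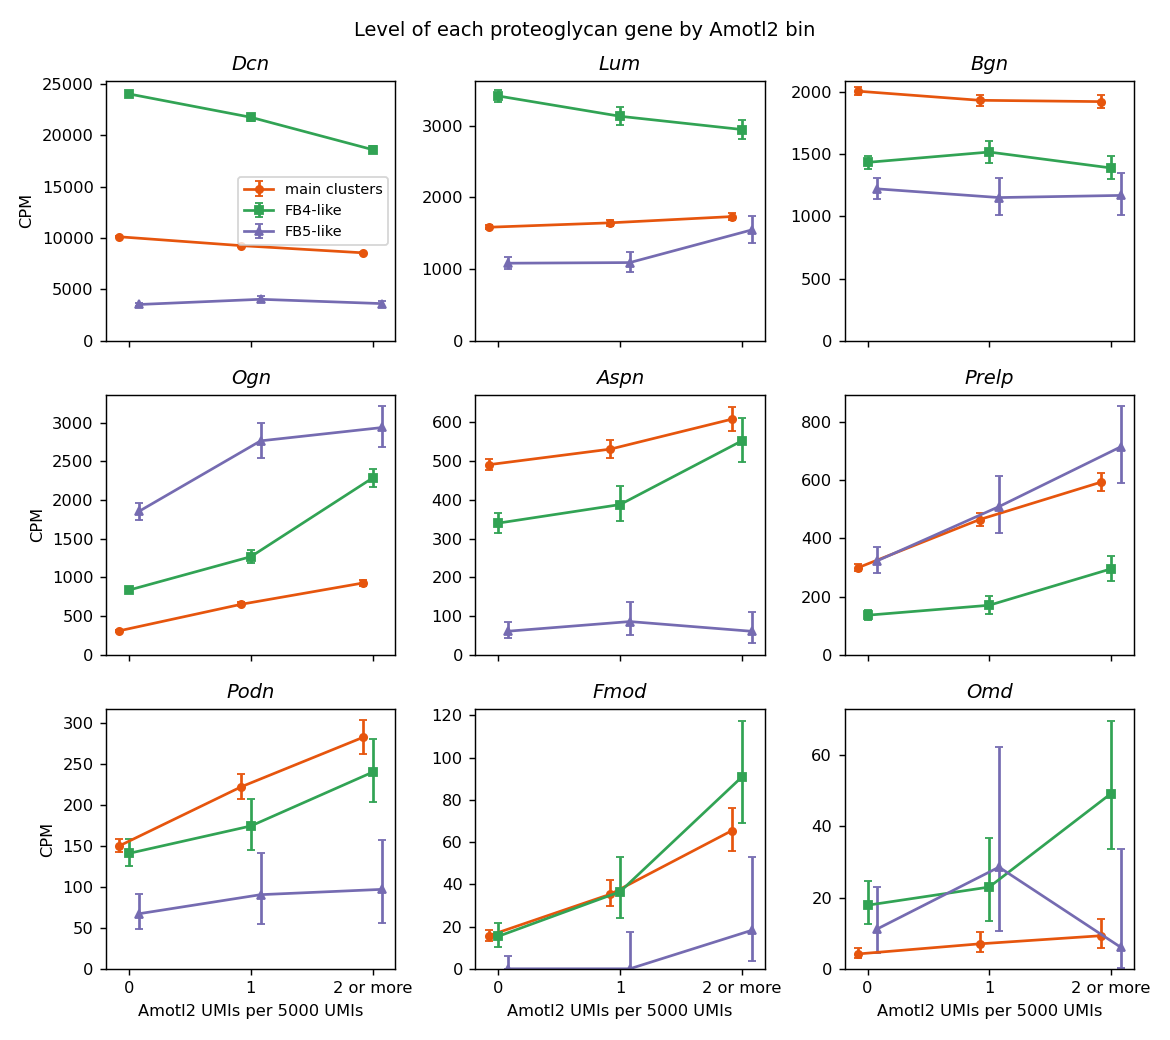
Level of each gene, in CPM on a linear axis from 0, in cells with 0, 1 and 2 or more Amotl2 UMIs per 5000 UMIs, for the main clusters, FB4-like and FB5-like cells. Bars are exact 95% Poisson intervals. Ogn and Prelp are higher with Amotl2 in all 3 sets, while Dcn is lower in the main clusters and FB4-like cells and has a ratio of 1.02 in FB5-like cells.

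Cell by cell, Dcn and Lum, neighbours on chromosome 10, were positively correlated in every large cluster. Pearson's r of log2(UMIs + 1) at 5000 UMIs per cell was 0.61 in cluster 1, 0.44 in cluster 2, 0.43 in cluster 3, 0.28 in cluster 5 and 0.45 in FB4-like cells. These are descriptions over 5 sets of 654 to 880 cells that share 1 library. In FB4-like cells Ogn had r of 0.38 with Fmod, 0.31 with Aspn and 0.30 with Prelp, and of -0.12 with Dcn. Over the 9 clusters, the genes most like each member in log2(CPM + 1) were Smarca2 for Dcn (r = 0.958), Entpd2 for Lum (0.992), Slc7a6 for Bgn (0.978), Wisp2 for Fmod (0.954), Prickle1 for Ogn (0.921), Susd2 for Prelp (0.949), P2ry14 for Aspn (0.971), Prrg3 for Podn (0.970) and Adm for Omd (0.935), of 10383 genes ranked. Each is the highest of 10383 values of r over only 9 points. Such a search can give values this high by itself, so no link between the genes is read from them.

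Of the other genes of the family, 7 of 8 were in the file. Epyc, epiphycan of the osteoglycin branch, had 241 UMIs in the library, 222 of them in FB4-like cells (25.8 CPM) and 8 in the main clusters. Ecm2, next to Aspn on chromosome 13, had 137 CPM in FB4-like cells, 54.6 CPM in the main clusters and 8.60 CPM in vFB3-like cells. Optc, next to Prelp, had 32 of its 93 UMIs in the 77 SMC-like cells (27.2 times the main clusters, 16.9 to 43.1). Podnl1, the closest relative of Podn, had 17 of its 18 UMIs in the 45 vFB3-like cells (29.2 CPM), the cells in which Podn itself was lowest. Tsku had 270 UMIs and Nyx 7, and 0 UMIs of Chad were counted in the library, which allows up to 0.0651 CPM.

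The genes of collagens, sugar chains and proteases that act with these proteins were followed as lists. Of 10 collagen genes, Col14a1 was past 2-fold and higher in FB4-like cells over the main clusters (2.57) and Col12a1 lower (0.377), both collagens that sit on fibril surfaces, where 8.07% of all genes were past the mark. In FB5-like cells Col12a1 was higher (5.50), and Col14a1 (0.180), Col3a1 (0.299) and Col1a1 (0.448) were lower. In SMC-like cells 5 of 10 collagens were past 2-fold and all 5 lower, led by Col14a1 (0.281) and Col1a1 (0.306), beside 15.9% of all genes. In cluster 8 this held for 7 of 10, led by Col6a1 (0.318) and Col1a1 (0.319), beside 21% of all genes. In vFB3-like cells Col12a1 (3.19) and Col14a1 (2.97) were higher and 0 were lower, a count no greater than the share of all genes past the mark (20.5%). Of 20 chain-making genes tested, Chst1 (8.43), Chst2 (6.80) and Chst11 (4.55) were higher in FB5-like cells, and 4 were lower, led by Chst15 (0.169), Chst12 (0.233) and Xylt1 (0.278). Sulfotransferases thus stood on both sides, beside 14.3% of all genes past the mark. With 2 or more over 0 Amotl2 UMIs in the main clusters, 2 of 10 collagens were past 1.5-fold and higher, Col12a1 (1.87) and Col14a1 (1.63), beside 5.27% of all genes. Of 19 chain-making genes, Dse (2.10) and Ust (1.58) were higher and Xylt1 (0.383), the enzyme that starts the chain on the core protein, was lower. This stood beside 10.5% of all genes past 1.5-fold in either direction. Dse makes dermatan sulfate, the chain form of decorin and biglycan.

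Of 7 proteases tested, 2 were past 1.5-fold and higher with Amotl2 in the main clusters, Adamts5 (2.84) and Mmp14 (1.56), and Mmp3 was lower (0.220), beside 10.5% of all genes past it in either direction. In FB4-like cells Adamts5 was higher too (5.36), Mmp3, at 1.55, lay on the other side of 1, and Adamts4 was lower (0.521), beside 16.3% of all genes. Of 5 YAP/TAZ target genes tested beside Amotl2 in the main clusters, 4 were past 1.5-fold and higher, Ajuba, Ctgf, Cyr61 and Lats2, beside 5.27% of all genes. Within clusters 2 and 5 alone 0 of 4 tested were past it, beside 6.64% and 9.13% of all genes. Within cluster 1 Cyr61 and Lats2 were higher and Ctgf lower (0.268), beside 31.9% of all genes. Within cluster 3 Cyr61 and Lats2 were higher, beside 23.6%. In FB5-like cells 0 of 2 were past it, beside 18.5%. In FB4-like cells 3 of 4, Ctgf, Cyr61 and Lats2, were past it and higher, beside 9.19% of all genes. In the pooled main clusters the median ratio over the collagens was 1.25 and over the chain-making genes 1.11, against 1.01 over all genes. Of 3 large proteoglycans tested with Amotl2 in the main clusters, 0 were past 1.5-fold. Between cell types Vcan, the large proteoglycan versican, was past 2-fold and lower in FB5-like cells, SMC-like cells, vFB3-like cells and cluster 8.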

How the data were processed

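The LATS1/2 KO 1w library had been sorted for tdTomato, prepared with a 10x 3′ kit and processed by the authors on mm10 with Cell Ranger 3.0.2 and Seurat, given as 3.0.1 in the submitters' processing notes and as another release in the study's methods. Their filters asked for 1000 to 6000 genes and no more than 7% mitochondrial UMIs in a cell, and took out immune and endothelial cells. Doublets were gated out at sorting, and none were called here. The deposited values are, per the values themselves, natural log values of 1 plus UMIs scaled to 10000 per cell, made by the authors. They were turned back into UMI counts, and 0 of 13789523 values differed from a whole number by more than 0.001. The step was added because the values were not counts.

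Clusters came from Seurat 5.3.0 (R 4.3.3) with 2000 variable genes less 35 (the 9 genes, the gene lists and sex-linked genes), UMI count and mitochondrial percent regressed out, 30 components and resolution 0.5. A cluster was named when at least 3 markers of a list were each in at least 10% of its cells and stood at 2 times or more the median over the remaining clusters, unless another list had more markers among its 10 leading genes. This naming rule, the members and the lists were chosen with earlier results of these data known. Counts and intervals used Python 3.11.15, numpy 2.4.6 and scipy 1.17.1. Genes with at least 200 UMIs entered the background between clusters, those with at least 50 thinned UMIs that of Amotl2 bins, and a ratio needed more than 3 UMIs on 1 side. For the comparison of Amotl2 bins, cells were thinned to 5000 UMIs and the 94 shallower cells left out. Named genes were the 9 members, the other genes of the family, the YAP/TAZ targets, at most 3 genes of highest and 3 of lowest ratio in each of the other lists, and for each member the gene of highest Pearson correlation over the clusters. The ratio and fold computations were tested on simulated data. Alternatives were other resolutions, nothing regressed out, cells assigned by marker UMIs, cells with Xist or Y-linked UMIs alone, limits on UMIs and mitochondrial percent, other thinning, other bins, another denominator and subtraction of the free RNA bound.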

Additional observations from a re-analysis of the deposited data

How the results depend on the processing

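Resolution 0.2 returned the same cell sets and is no check. Of 567 ratios recomputed under the other alternatives, 310 stayed within the counting interval of the reported ratio, 249 left it, and 8 that had been past the mark changed side. The number of genes past 2-fold was 2 in vFB3-like cells at resolution 1.0, where 560 cells took that name, and 7 at no more than 5% mitochondrial UMIs. With cells assigned by marker UMIs it was 2 for SMC-like cells (Omd 1.15, Aspn 0.640, Podn 0.695, Ogn 2.59) and 0 for cluster 8 (Omd 0.889, Dcn 0.907, Lum 0.955). With Amotl2 in the main clusters, the number past 1.5-fold was 1 with bins by Ctgf (Podn 0.848), and 2, 3 and 0 within clusters 2, 3 and 5, with no minimum of UMIs. Omd had 0 within clusters 1 and 3 (0 UMIs against 5 and 6), 0.819 within cluster 5 (interval 0.357 to 1.89) and 0.779 in cells with Y-linked UMIs, on counts too small to show a reversal. Without thinning Fmod had 7.77 and Ogn 4.95. In FB4-like cells the number was 3 with bins by Vegfc (Podn 0.988). The cause of these shifts was not tested. The alternative that left out the cells over 10000 UMIs of cluster 8 was chosen after seeing the data and gave 5. SMC-like cells at no more than 5% mitochondrial UMIs and cluster 8 at 8000 to 14000 UMIs had fewer than 10 cells and gave no value. Depth limits Omd and Fmod most, and 1 library leaves the spread between mice unmeasured.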
